A study of Mus musculus with 24 samples.

Results

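The 42 genes described here encode the enzymes that make cholesterol and fatty acids, the proteins that sense sterol levels, and the proteins that move or modify cholesterol. They were chosen by symbol from a list of 42 names, a list drawn up with earlier results of these data known but with no measured value in its rule, and all 42 were found among the 47643 symbols of the table. They were ordered into 8 genes of the mevalonate steps, 11 of the steps from squalene to cholesterol, 6 of sterol sensing, 6 of fatty acid synthesis, 6 of cholesterol efflux and its liver X receptors, and 5 of oxysterol formation, ester storage and lysosomal transport. The first and second sets together are called the 19 sterol synthesis enzymes below, and the remaining 23 genes the other members.

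The RNA of 3 brain regions, neocortex, cerebellum and hippocampus, was sequenced in bulk from male C57BL/6J mice that were all 4 months old. LLC mice had received an injection of LLC cells, which grew for up to about 3 weeks, and control mice were mock-injected. The abbreviation is commonly read as Lewis lung carcinoma, a transplantable mouse tumour line, although no label expands it, and melanoma-induced cachexia, the wasting that accompanies a tumour, is named in the title of the series. Each region had 4 LLC libraries, replicates 1 to 4, and 4 control libraries, replicates 14 to 17, so there were 24 libraries in 6 groups. No label says that libraries of different regions with the same number came from 1 animal.

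The brain makes nearly all of its own cholesterol, because lipoproteins of the blood do not pass the blood-brain barrier, and most of that cholesterol sits in myelin. Synthesis starts from acetyl-CoA and passes through mevalonate, squalene and lanosterol. When membranes hold little sterol, the chaperone encoded by Scap carries the membrane-bound transcription factors encoded by Srebf1 and Srebf2 to the Golgi, where they are cut and released to the nucleus. The products of Insig1 and Insig2 hold that complex back when sterol is plentiful. The factor from Srebf2 acts mainly on sterol synthesis genes, and the main form from Srebf1 acts mainly on fatty acid synthesis genes. Surplus cholesterol becomes oxysterols, which bind the liver X receptors encoded by Nr1h2 and Nr1h3, and these receptors activate efflux genes such as Abca1 and Abcg1, and also Srebf1.

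Values are TPM, transcript abundances per length with a common total for every library, so levels can be set side by side between genes, while the number of reads behind a value is not known. A level of 1 TPM was reached by 14368 to 14847 genes in a library, and 0 of the 276 pairs of libraries held identical values. Differences are log2 differences, LLC minus control, computed on log2(TPM + 1) with their standard error (SE). A gene was called when limma's adjusted p (Benjamini-Hochberg, over all genes tested in the comparison) was under 0.05. All 42 genes passed the filter of a mean of 1 TPM in the 3 LLC comparisons, and Ch25h did so only through its LLC libraries. LLC replicate 4 was the LLC library nearest to the controls in the mean of the sterol synthesis enzymes and in the erythroid and endothelial sums of all 3 regions, and the farthest from them in the neutrophil sum. Cerebellar LLC replicate 1 stood apart in its regional make-up. Their values are given with the results they touch. The summed level of 4 choroid plexus genes ranged from 48.8 to 7382 TPM in LLC and 46.7 to 4049 TPM in control hippocampus. It was 637 to 2290.5 TPM in LLC and 274 to 1815 TPM in control neocortex. In cerebellum it was 4207 to 8059 TPM in LLC and 4345 to 5224 TPM in control libraries. None of the 4 was called in any region, and the part of this tissue in the results was not tested. Within each region, the summed level of 5 erythroid and of 4 neutrophil genes was higher in every LLC library than in every control library. In such bulk samples, fewer cells of a type and less RNA per cell cannot be told apart.

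Sterol synthesis transcripts were lower in the brains of LLC mice. In neocortex 13 of the 19 sterol synthesis enzymes fell and none rose, while 2.95% of all genes tested there were called lower. In cerebellum 3 of 19 fell, Idi1, Cyp51 and Sc5d, against 1.27% of all genes, and in hippocampus 10 of 19 fell, against 1.03%. The median log2 difference of the 19 enzymes was -0.39 in neocortex, -0.28 in cerebellum and -0.45 in hippocampus, beside a median over all genes tested of 0.01, -0.04 and 0.01 in the same regions. The 23 other members had medians of -0.06, -0.02 (0.03 with median-ratio scaling) and -0.04, with 6 called lower and 3 higher in neocortex, 2 lower and 2 higher in cerebellum, and 1 lower and 1 higher in hippocampus. Calls in either direction made up 8.54% of the genes tested in neocortex, 2.50% in cerebellum and 3.61% in hippocampus. The differences were negative in all 3 regions for 16 of the 19 enzymes. The exceptions, each with a positive and uncalled value in cerebellum, were Acat2, Pmvk and Tm7sf2.

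**Figure D1:**
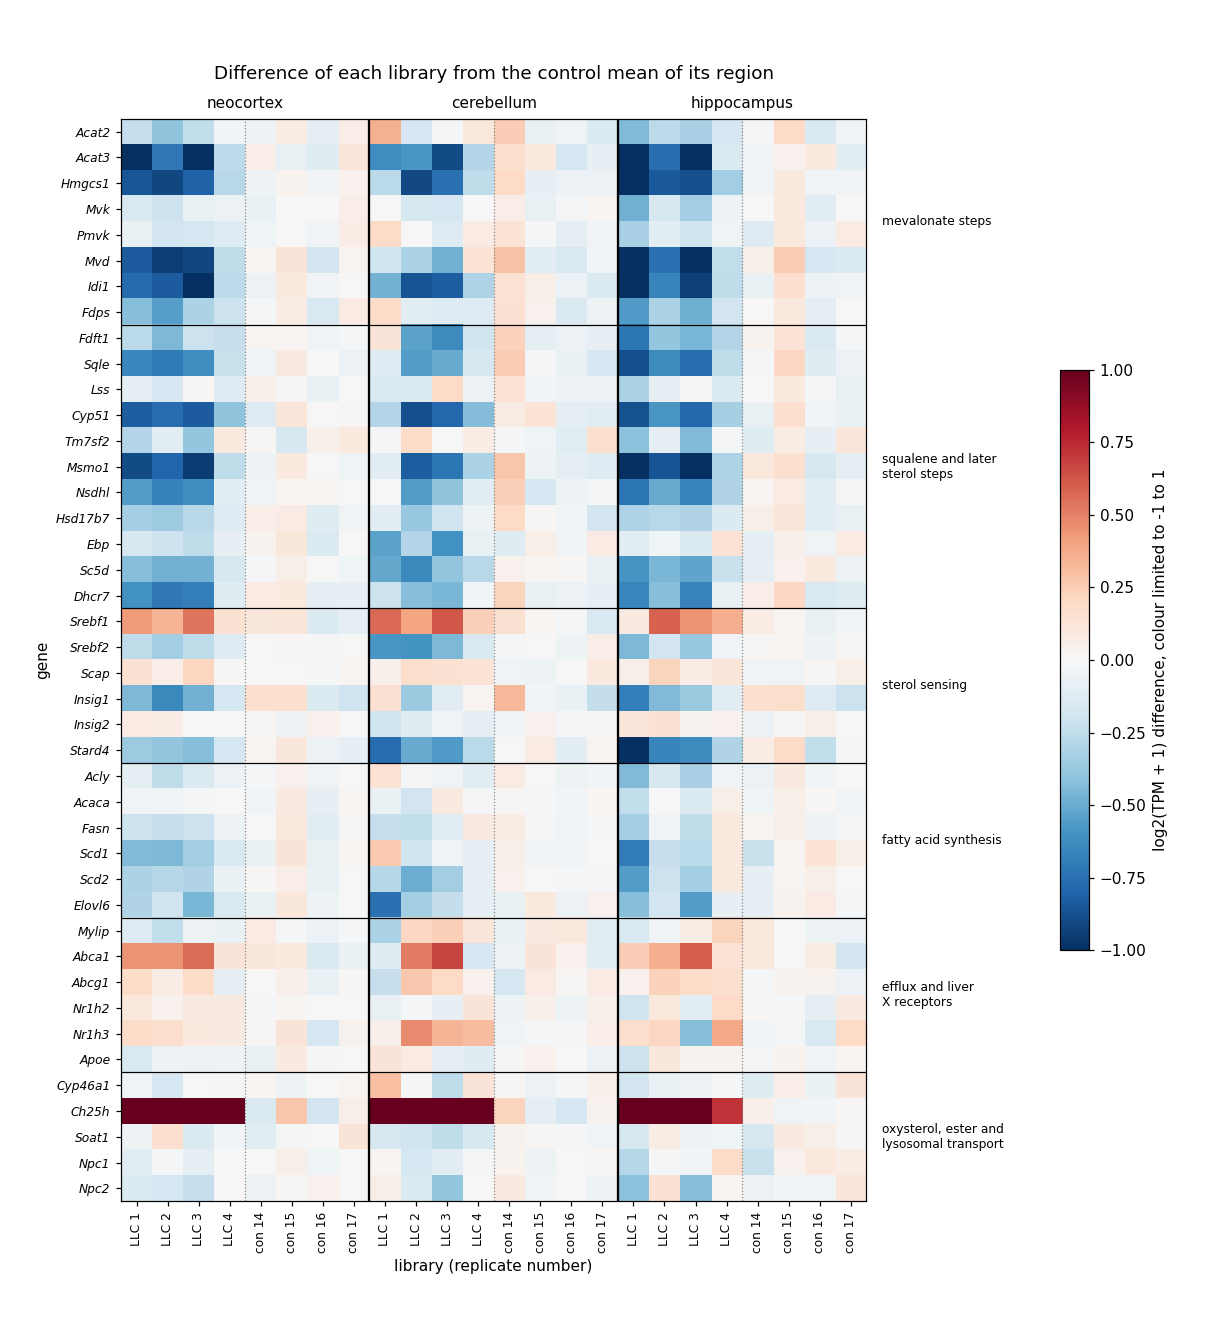
Log2(TPM + 1) of each of the 42 genes (rows, by role) in each of the 24 libraries (columns, LLC left of control within each region), as the difference from the control mean of the region, with the colour limited to -1 and 1. The sterol synthesis rows are blue in LLC replicates 1 to 3 of neocortex and hippocampus and paler in LLC replicate 4, and Ch25h is dark red in all LLC libraries but hippocampal replicate 4, where it is lighter.

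The mevalonate steps lead from acetyl-CoA to farnesyl diphosphate. Hmgcs1 (chr13:119690379-119708260, + strand), the cytosolic HMG-CoA synthase, had 125, 144, 140.4 and 204 TPM in LLC hippocampus and 253, 277, 254 and 253 TPM in control hippocampus (means 153 ± 34.5 TPM in LLC and 259 ± 11.8 TPM in control, SD, n = 4 each). All LLC values lay below all control values, with LLC replicate 4 the nearest to them. The log2 difference was -0.78 ± 0.12 (SE, adjusted p = 0.0179). In neocortex Hmgcs1 had 169, 163, 175 and 253 TPM in LLC neocortex and 296, 315, 301 and 317 TPM in control neocortex, a difference of -0.71 ± 0.12 (SE, adjusted p = 0.0112). In cerebellum it had 134, 85.6, 95.6 and 135 TPM in LLC cerebellum and 186, 152, 155 and 155 TPM in control cerebellum, and the difference of -0.54 ± 0.15 (SE, adjusted p = 0.0768) did not pass the test although the groups did not overlap. Every LLC library lay below every control library in 6.18% of all genes tested in neocortex, 10.3% in cerebellum and 4.81% in hippocampus. Of the 19 enzymes, 14, 5 and 13 showed this pattern.

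Idi1 (chr13:8885501-8892451, + strand), the isomerase that prepares isoprene units for coupling, fell in all 3 regions. It had 33.8, 32.3, 27.8 and 48.6 TPM in LLC neocortex, against 56.1, 62.4, 57.1 and 58.1 TPM in control neocortex (means 35.6 ± 9.01 TPM in LLC and 58.4 ± 2.76 TPM in control, SD, n = 4 each). The difference was -0.73 ± 0.13 (SE, adjusted p = 0.0169) in neocortex, -0.62 ± 0.13 (SE, adjusted p = 0.0437) in cerebellum and -0.72 ± 0.15 (SE, adjusted p = 0.0347) in hippocampus. Of the longest Idi1 transcript, 21.3% of the 50-base stretches also occur in the pseudogene Gm13502, so its reads may be shared. Mvd, the decarboxylase that makes isopentenyl diphosphate, had 16.4, 15.2, 15.6 and 25.1 TPM in LLC neocortex and 30.5, 33.05, 26.4 and 30.7 TPM in control neocortex (means 18.1 ± 4.68 TPM in LLC and 30.2 ± 2.75 TPM in control, SD, n = 4 each). The groups did not overlap, and the difference was -0.73 ± 0.14 (SE, adjusted p = 0.0183). Mvd was also called in hippocampus, at -0.76 ± 0.17 (SE, adjusted p = 0.0407), and not in cerebellum, at -0.22 ± 0.14 (SE, adjusted p = 0.370). Fdps, the farnesyl diphosphate synthase, was called lower in neocortex and hippocampus, at -0.38 ± 0.08 and -0.39 ± 0.08 (SE), and shares 11.7% of its 50-base stretches with Gm43738. Mvk and Pmvk, the kinases of the pathway, were called in no region, with differences between -0.26 and 0.04.

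Acat2 and Acat3, 2 thiolases next to each other on chromosome 17 (Acat2 at chr17:12942890-12960747, - strand, Acat3 at chr17:12923813-12940600, - strand), join acetyl-CoA units at the entry of the pathway. Of the 50-base stretches of the longest transcript, 45.9% of Acat2 and 48.2% of Acat3 occur in the partner, so their counts are uncertain. Acat3 was the scarcer, with 3.60, 5.004, 3.95 and 7.24 TPM in LLC neocortex and 9.36, 8.40, 8.10 and 9.75 TPM in control neocortex (means 4.95 ± 1.64 TPM in LLC and 8.90 ± 0.783 TPM in control, SD, n = 4 each). It fell in neocortex by a log2 difference of -0.77 ± 0.16 (SE, adjusted p = 0.0218), with no overlap between the groups. Of Acat3 exon bases, 23.5% also lie under Tcp1 on the opposite strand. Acat2 had 34.3, 39.1, 37.2 and 41.6 TPM in LLC hippocampus and 46.5, 54.05, 42.2 and 45.6 TPM in control hippocampus, and its difference of -0.30 ± 0.08 (SE, adjusted p = 0.0708) did not pass, although every LLC value lay below every control value. It passed without LLC replicate 4. Acat2 was called in no region, and the value of Acat3 missed the threshold in cerebellum (adjusted p = 0.0589) and hippocampus (adjusted p = 0.0519).

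The start regions of 4 genes are shown, because the factors of this pathway bind close to the start of the genes. The genes were chosen by the smallest p in neocortex among those with a listed start region. They are 3 sterol synthesis enzymes and 1 gene of the efflux and oxysterol sets. Cyp51 and Sc5d fell in all 3 regions, Hmgcs1 fell in 2 and Ch25h rose in all 3. The start regions run from 250 bases before to 50 bases after the RefSeq start of the gene (GRCm38.p6). Capitals mark the core of the sterol regulatory element, TCACNCCA, and the CCAAT box, on either strand, so that ATTGG is a CCAAT box on the other strand.
Hmgcs1, chr13:119690101-119690400, + strand: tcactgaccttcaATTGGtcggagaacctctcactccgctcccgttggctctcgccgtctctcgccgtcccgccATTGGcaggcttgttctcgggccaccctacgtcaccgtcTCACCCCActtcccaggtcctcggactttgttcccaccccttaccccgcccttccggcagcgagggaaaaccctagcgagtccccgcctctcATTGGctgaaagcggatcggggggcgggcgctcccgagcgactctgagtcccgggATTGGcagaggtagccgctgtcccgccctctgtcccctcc
Cyp51, chr5:4104648-4104947, - strand: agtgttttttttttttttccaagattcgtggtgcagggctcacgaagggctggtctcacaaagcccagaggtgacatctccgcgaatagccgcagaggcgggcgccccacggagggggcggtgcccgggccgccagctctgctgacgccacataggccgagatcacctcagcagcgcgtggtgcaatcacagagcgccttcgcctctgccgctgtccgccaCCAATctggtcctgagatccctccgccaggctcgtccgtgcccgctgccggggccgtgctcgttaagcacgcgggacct
Sc5d, chr9:42264251-42264550, - strand: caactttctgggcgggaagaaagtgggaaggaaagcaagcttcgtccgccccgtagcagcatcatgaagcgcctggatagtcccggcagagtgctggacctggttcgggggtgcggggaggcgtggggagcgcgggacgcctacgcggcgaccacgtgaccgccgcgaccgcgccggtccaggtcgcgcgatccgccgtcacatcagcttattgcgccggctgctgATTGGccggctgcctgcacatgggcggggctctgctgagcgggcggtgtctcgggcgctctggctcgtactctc
Ch25h, chr19:34475099-34475398, - strand: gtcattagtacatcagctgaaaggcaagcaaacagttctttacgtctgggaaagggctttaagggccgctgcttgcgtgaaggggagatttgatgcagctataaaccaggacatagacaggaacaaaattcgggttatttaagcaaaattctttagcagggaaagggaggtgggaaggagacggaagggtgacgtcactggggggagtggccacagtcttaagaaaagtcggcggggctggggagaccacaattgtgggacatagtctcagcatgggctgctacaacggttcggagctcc
Hmgcs1 held the element TCACNCCAC, which contains the core, 137 bases before its start, and 4 CCAAT boxes. Cyp51 and Sc5d held 1 CCAAT box each, 29 and 24 bases before the start, and Ch25h neither motif.

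A start region was listed for 33 of the 42 genes. It held CCAAT in 24 of 33, beside 37.4% of all 32851 start regions (41.1% of 27025 genes). By role, 14 of the 15 sterol synthesis enzymes had one, all but Acat2, as did 4 of 5 sterol sensing genes, 2 of 4 fatty acid synthesis genes, 1 of 5 efflux genes and 3 of 4 genes of the oxysterol set. The core TCACNCCA occurred in Hmgcs1, Msmo1, Srebf2 and Apoe, beside 4.36% of all start regions (4.97% of genes). The longer TCACNCCAC occurred in Hmgcs1 alone, beside 1.24% (1.44% of genes). CACGTG, the E-box that is its own reverse complement, occurred in Hsd17b7, Sc5d, Dhcr7, Scap, Insig1 and Abca1, beside 7.15% (8.09% of genes). The direct repeat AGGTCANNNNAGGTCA occurred in 0 of 33, beside 0.0152% (0.0148% of genes). Both strands were searched. These are matches of letters within 300 bases and no measure of binding.

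The steps from squalene to cholesterol showed the same direction. Cyp51 (chr5:4081145-4104746, - strand), the lanosterol demethylase, had 28.99, 30.3, 28.9 and 39.3 TPM in LLC neocortex and 47.7, 56.8, 51.99 and 52.6 TPM in control neocortex (means 31.8 ± 4.98 TPM in LLC and 52.3 ± 3.70 TPM in control, SD, n = 4 each). The highest LLC value, in replicate 4, was well under the lowest control value, and the difference was -0.71 ± 0.09 (SE, adjusted p = 0.00459). Cyp51 had 34.2, 22.4, 23.9 and 30.8 TPM in LLC cerebellum and 44.2, 46.2, 39.3 and 38.7 TPM in control cerebellum, a difference of -0.60 ± 0.13 (SE, adjusted p = 0.0483). In hippocampus the values were 23.2, 28.4, 24.6 and 34.03 TPM in LLC hippocampus and 40.8, 48.5, 42.4 and 41.2 TPM in control hippocampus, a difference of -0.64 ± 0.11 (SE, adjusted p = 0.0225). The groups did not overlap in any region.

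Sqle, the squalene epoxidase, had 23.1, 22.2, 23.6 and 31.4 TPM in LLC neocortex, against 35.8, 39.2, 37.01 and 35.4 TPM in control neocortex (means 25.1 ± 4.26 TPM in LLC and 36.8 ± 1.69 TPM in control, SD, n = 4 each). The difference was -0.55 ± 0.09 (SE, adjusted p = 0.0132), and it was -0.63 ± 0.13 (SE, adjusted p = 0.0311) in hippocampus. Nsdhl, a dehydrogenase that takes part in removing methyl groups from the ring, had 14.6, 17.3, 15.4 and 20.01 TPM in LLC hippocampus and 25.2, 26.4, 22.9 and 25.05 TPM in control hippocampus (means 16.8 ± 2.41 TPM in LLC and 24.9 ± 1.45 TPM in control, SD, n = 4 each). No LLC library reached a control library, and the difference was -0.55 ± 0.09 (SE, adjusted p = 0.0215) in hippocampus and -0.49 ± 0.11 (SE, adjusted p = 0.0261) in neocortex. Sc5d (chr9:42251595-42264256, - strand), a sterol desaturase, was chosen for its call in all 3 regions after its values were seen. It had 59.8, 54.3, 64.9 and 70.4 TPM in LLC cerebellum, against 88.3, 86.9, 86.2 and 81.3 TPM in control cerebellum. Its differences were -0.39 ± 0.07 (SE, adjusted p = 0.0140) in neocortex, -0.46 ± 0.08 (SE, adjusted p = 0.0280) in cerebellum and -0.45 ± 0.08 (SE, adjusted p = 0.0233) in hippocampus.

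Msmo1, a methylsterol oxidase, and Fdft1, the squalene synthase, were called lower in neocortex and hippocampus as well, Msmo1 at -0.72 ± 0.13 and -0.86 ± 0.17 (SE) and Fdft1 at -0.29 ± 0.05 and -0.46 ± 0.09 (SE). Fdft1 shares 10.9% of its 50-base stretches with another gene, and 18.3% of its exon bases lie under genes of the opposite strand. Hsd17b7, a sterol ketone reductase, and Dhcr7, the reductase of a last step, passed the test in neocortex, at -0.28 ± 0.07 and -0.53 ± 0.12 (SE), with adjusted p values of 0.0779 and 0.0879 in hippocampus. Lss, the lanosterol synthase, Tm7sf2, a sterol reductase, and Ebp, a sterol isomerase, were called in no region. Ebp had its most negative value in cerebellum, -0.38 ± 0.11 (SE, adjusted p = 0.0943), and Lss stayed between -0.14 and -0.04 in the 3 regions.

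**Figure D2:**
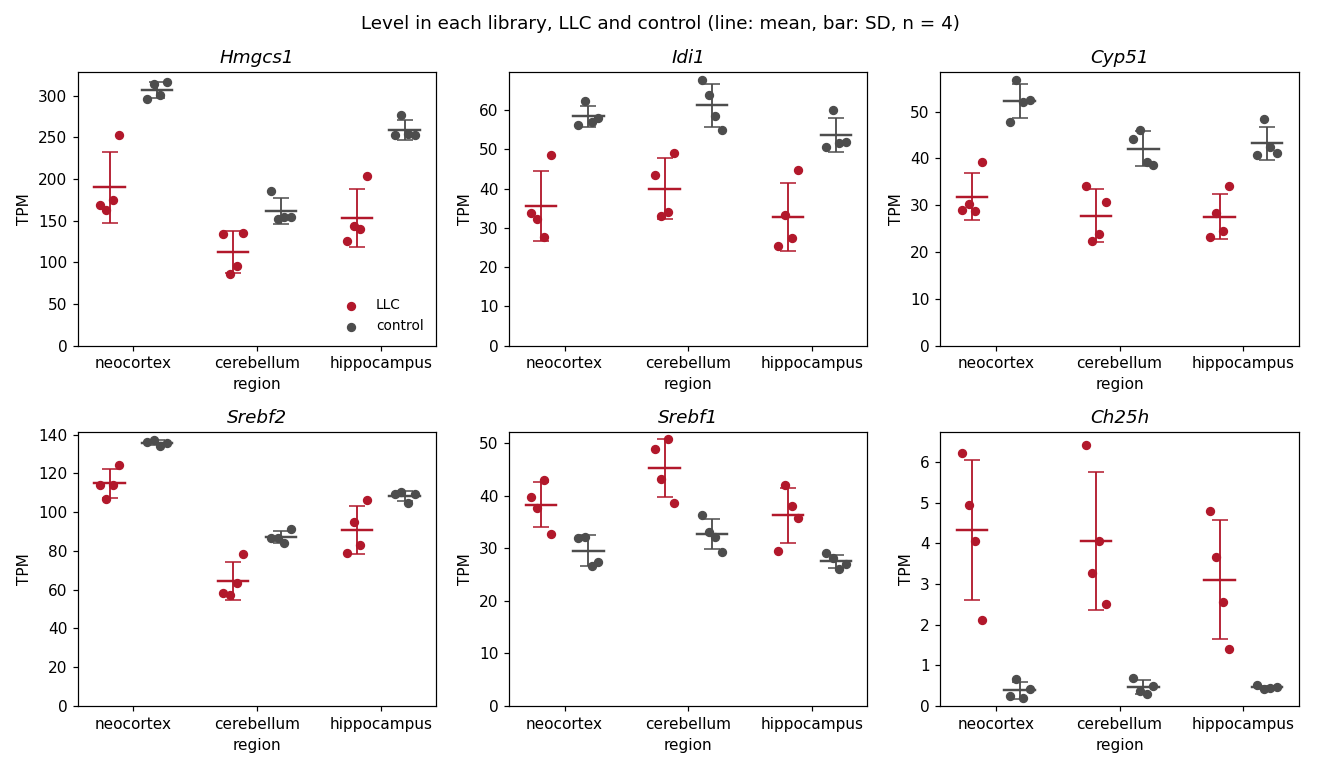
TPM of Hmgcs1, Idi1, Cyp51, Srebf2, Srebf1 and Ch25h in each library (points) by region, LLC in red left of control in grey, with the mean (line) and SD (bar, n = 4). For Hmgcs1, Idi1 and Cyp51 every LLC point lies under every control point of its region, and for Ch25h every LLC point lies above, from 1.41 TPM upward.

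The counts turned on single libraries. LLC replicate 4 held the highest LLC value for 16 of the 19 sterol synthesis enzymes in neocortex, 9 in cerebellum and 18 in hippocampus, against 32.5%, 35.7% and 33.2% of all genes tested. It lay above the other LLC libraries and below every control for 12, 4 and 13 of 19, against 4.05%, 4.75% and 2.30% of all genes. The mean log2 difference of the 19 enzymes from the control mean was -0.50, -0.54, -0.52 and -0.17 in neocortical LLC replicates 1 to 4, -0.15, -0.43, -0.42 and -0.12 in cerebellar ones and -0.67, -0.43, -0.59 and -0.18 in hippocampal ones. Without LLC replicate 4 the count called lower was 17 in neocortex, 6 in cerebellum and 15 in hippocampus. Calls over the whole table rose as well. Without that library 1633 of 14477, 950 of 14619 and 718 of 14642 genes were called lower in the same order. The main fits called 428, 186 and 151 genes lower. The neocortical count of the 19 enzymes was 3 without LLC replicate 1, 4 without LLC replicate 2, 3 without control replicate 15 and 7 without control replicate 16 or 17. In cerebellum it was 7 without LLC replicate 1 and 0 without any other library except LLC replicate 4. In hippocampus it was 1 without LLC replicate 1 or 3 or control replicate 16 or 17 and 0 without LLC replicate 2 or control replicate 14 or 15. Over all genes, 31 to 157 were called lower in neocortex and 5 to 24 in hippocampus without any library but LLC replicate 4. In cerebellum 640 genes were called lower without LLC replicate 1, and 0 to 22 without any other library except LLC replicate 4. The call of Cyp51 in neocortex held without each library in turn. In neocortex that of Sqle was lost without LLC replicate 1, that of Idi1 without LLC replicates 1 or 2 or control replicates 15 or 16, and that of Mvd without LLC replicates 1 or 2 or control replicates 15 or 17. Acat3 lost its neocortical call without any library but LLC replicate 4. In hippocampus Hmgcs1 was not called without LLC replicate 2 or control replicate 14, 15 or 16, and Nsdhl was called only without LLC replicate 4 or control replicate 16, when 1 library was left out, and in neocortex only without LLC replicate 4. Without a filter on low values, which brings more genes into the adjustment, the calls of Acat3, Insig1, Nsdhl, Srebf1, Scd2, Elovl6 and Abca1 in neocortex and of Srebf1, Srebf2 and Stard4 in cerebellum were among those lost.

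Markers of other cell types also differed between the groups, and their part in the sterol synthesis result was not tested. Beside the counts below, 2.95% of all genes tested were called lower and 5.59% higher in neocortex. The shares were 1.27% and 1.23% in cerebellum, and 1.03% and 2.58% in hippocampus. In neocortex the summed level of 9 myelin genes was 2029 to 2298 TPM in LLC and 2046 to 2185 TPM in control libraries, with 3 genes called lower (Ugt8a, Mag, Mog) and Mal called higher. In cerebellum the myelin sum was 1902 to 4057 TPM in LLC and 2113 to 2594 TPM in control libraries, in hippocampus 1381 to 2824 TPM in LLC and 1474 to 2245 TPM in control libraries, and 0 of 9 genes were called in either region. The sum of 6 neuronal genes was 2741 to 3149.5 TPM in LLC and 3142 to 3319.8 TPM in control neocortex, with 3 called lower, and in hippocampus 2437 to 2576 TPM in LLC and 2636 to 2814 TPM in control libraries, with 2 called lower and 1 higher. The sum of 8 astrocyte genes was 2270.3 to 2485.5 TPM in LLC and 2175 to 2327 TPM in control neocortex, with Aldoc and Slc1a3 called higher and Aqp4 lower. Aldoc was also called higher in cerebellum and hippocampus, and Aqp4 lower in cerebellum. The sum of 7 microglial genes was 372, 401, 348 and 488 TPM in LLC replicates 1 to 4 and 431 to 462 TPM in control neocortex. It was 237, 182, 187 and 211 TPM in LLC replicates 1 to 4 and 204 to 226 TPM in control cerebellum, and 345, 372, 305 and 473 TPM in LLC replicates 1 to 4 and 399.6 to 422 TPM in control hippocampus, with 0 of 7 called in each region. Of 4 mural genes 2 were called higher in neocortex, 0 in cerebellum and 1 in hippocampus. The sum of 8 endothelial genes was 327 to 476 TPM in LLC and 226 to 251 TPM in control neocortex, with 7 called higher. It was 308 to 494 TPM in LLC and 241 to 264 TPM in control cerebellum, and 266 to 345 TPM in LLC and 172 to 214 TPM in control hippocampus, with 3 and 6 called higher. The sum of 5 erythroid genes was 3564 to 15176 TPM in LLC and 1124 to 1506 TPM in control neocortex, with all 5 called higher, and LLC replicate 4 had the lowest LLC sum. The sum of 4 neutrophil genes was 42.1 to 191 TPM in LLC and 3.90 to 7.70 TPM in control neocortex, with all 4 called higher, and LLC replicate 4 had the highest sum. With the haemoglobin genes removed and the rest rescaled, 13, 2 and 10 sterol synthesis enzymes were called lower in neocortex, cerebellum and hippocampus. Over all genes, 366 of 14496, 160 of 14626 and 147 of 14650 were called lower in that setting. No marker was at 0 TPM in all libraries of a region.

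Among the 6 genes of sterol sensing, Srebf1 and Srebf2 moved in opposite directions. Srebf2 had 114, 107, 114 and 125 TPM in LLC neocortex and 136, 137, 134 and 136 TPM in control neocortex (means 115 ± 7.26 TPM in LLC and 136 ± 1.16 TPM in control, SD, n = 4 each). The groups did not overlap, and the difference was small, -0.24 ± 0.04 (SE, adjusted p = 0.0160). In cerebellum the difference was larger, -0.44 ± 0.10 (SE, adjusted p = 0.0468), with 58.03, 57.2, 63.5 and 78.5 TPM in LLC cerebellum and 86.7, 86.9, 83.95 and 91.3 TPM in control cerebellum. In hippocampus LLC replicate 4 lay within the control range and the difference of -0.26 ± 0.08 (SE, adjusted p = 0.101) did not pass.

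Srebf1 had 48.9, 43.2, 50.8 and 38.7 TPM in LLC cerebellum and 36.3, 33.2, 32.3 and 29.3 TPM in control cerebellum (means 45.4 ± 5.52 TPM in LLC and 32.8 ± 2.91 TPM in control, SD, n = 4 each). Every LLC value lay above every control value, with replicate 4 the lowest of the LLC libraries, and the difference was 0.45 ± 0.10 (SE, adjusted p = 0.0468). In neocortex Srebf1 had 39.9, 37.6, 43.1 and 32.8 TPM in LLC neocortex and 32.01, 32.2, 26.6 and 27.4 TPM in control neocortex, a difference of 0.36 ± 0.09 (SE, adjusted p = 0.0366). The hippocampal difference, 0.37 ± 0.09 (SE, adjusted p = 0.0569), missed the threshold, again with no overlap. Every LLC library lay above every control library in 10.9% of all genes tested in neocortex, 6.42% in cerebellum and 8.95% in hippocampus. Calls of higher expression made up 5.59%, 1.23% and 2.58% of the genes tested in the same regions.

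Stard4, a carrier that moves sterol between membranes, fell in all 3 regions. It had 27.6, 33.2, 31.6 and 39.2 TPM in LLC cerebellum, against 47.2, 50.4, 43.9 and 48.4 TPM in control cerebellum (means 32.9 ± 4.81 TPM in LLC and 47.5 ± 2.72 TPM in control, SD, n = 4 each). The difference was -0.53 ± 0.10 (SE, adjusted p = 0.0352) in cerebellum, -0.34 ± 0.07 (SE, adjusted p = 0.0199) in neocortex and -0.65 ± 0.14 (SE, adjusted p = 0.0393) in hippocampus, with no overlap in any of them. Insig1, a target as well as a brake of the pathway, had 66.96, 58.5, 65.7 and 81.5 TPM in LLC neocortex and 104, 103, 83.5 and 80.1 TPM in control neocortex (means 68.1 ± 9.64 TPM in LLC and 92.6 ± 12.6 TPM in control, SD, n = 4 each). LLC replicate 4 lay within the control range, and the difference was -0.44 ± 0.11 (SE, adjusted p = 0.0404). Insig1 was not called in cerebellum, at -0.08 ± 0.14 (SE, adjusted p = 0.755), or hippocampus, at -0.40 ± 0.13 (SE, adjusted p = 0.105). Insig2 and Scap were called in no region, with Scap between 0.11 and 0.13 and Insig2 between -0.11 and 0.09. The call of Srebf2 in neocortex was lost without LLC replicate 1 or control replicate 15 or 16. Those of Srebf1, Srebf2 and Stard4 in cerebellum held only without LLC replicate 1 or 4, those of Srebf1 in neocortex and Stard4 in hippocampus only without LLC replicate 4, and that of Insig1 in neocortex only without LLC replicate 4. That of Stard4 in neocortex was lost without LLC replicate 1 or 2 or control replicate 15 or 16. With all 24 libraries in 1 fit, Srebf2, Insig1 and Stard4 were not called in neocortex. With the trend in GC content and length removed, Srebf1 was not called in cerebellum nor Stard4 in cerebellum or hippocampus, and Stard4 was not called in hippocampus with a replicate block.

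Transcripts of the enzymes that desaturate and lengthen fatty acids were lower in neocortex. Scd1, a desaturase, had 125, 125, 134 and 153 TPM in LLC neocortex and 163, 186, 161 and 172 TPM in control neocortex (means 134 ± 13.4 TPM in LLC and 170.5 ± 11.4 TPM in control, SD, n = 4 each). All LLC values lay below all control values, and the difference was -0.35 ± 0.07 (SE, adjusted p = 0.0210). Scd2, the desaturase that dominates in brain, had 816, 834, 823 and 970.3 TPM in LLC neocortex, against 1021, 1063, 968 and 1012 TPM in control neocortex (means 861 ± 73.3 TPM in LLC and 1016 ± 39.04 TPM in control, SD, n = 4 each). LLC replicate 4 overlapped the controls, and the difference was -0.24 ± 0.06 (SE, adjusted p = 0.0356). Elovl6, an elongase, had 23.03, 24.8, 20.5 and 25.7 TPM in LLC neocortex and 27.3, 30.95, 27.5 and 28.6 TPM in control neocortex (means 23.5 ± 2.28 TPM in LLC and 28.6 ± 1.67 TPM in control, SD, n = 4 each), a difference of -0.28 ± 0.07 (SE, adjusted p = 0.0410). Its groups did not overlap.

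The enzymes that supply acetyl-CoA and build the chain were not called in any region. Acly, the citrate lyase, had differences of -0.14 ± 0.04 (SE, adjusted p = 0.0727) in neocortex, -0.00 ± 0.07 (SE, adjusted p = 0.975) in cerebellum and -0.24 ± 0.08 (SE, adjusted p = 0.121) in hippocampus. Fasn, the fatty acid synthase, had -0.18 ± 0.05 (SE, adjusted p = 0.0657), -0.13 ± 0.08 (SE, adjusted p = 0.360) and -0.14 ± 0.09 (SE, adjusted p = 0.395) in the same order. Acaca, the acetyl-CoA carboxylase, stayed between -0.08 and -0.02, and 52.6% of its 50-base stretches are shared with Gm5182. No fatty acid gene was called in cerebellum or hippocampus, where 2 and 3 of the 6 had an unadjusted p under 0.05, beside 24.4% and 22.2% of all genes tested. The median difference of the 6 genes was -0.21 in neocortex, -0.09 in cerebellum and -0.25 in hippocampus. All 18 of their differences were negative, but in cerebellum they reached up to -0.004. The median over all genes tested there was itself -0.04, and median-ratio scaling, which removes that shift, brought it to -0.0005. The negative signs of the smallest cerebellar differences therefore depend on the scaling. The neocortical calls of Scd2 and Elovl6 held only without LLC replicate 4 when 1 library was left out. That of Scd1 was lost without LLC replicate 1 or 2 or control replicate 15, 16 or 17. None of these 3 was called in neocortex with all 24 libraries in 1 fit.

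Of the 6 efflux genes, Abca1 passed the test in neocortex, and no other did so in any region. Abca1, a pump that loads cholesterol onto apolipoproteins, had 22.5, 22.5, 24.3 and 17.8 TPM in LLC neocortex and 17.6, 17.4, 14.5 and 15.4 TPM in control neocortex (means 21.8 ± 2.78 TPM in LLC and 16.2 ± 1.52 TPM in control, SD, n = 4 each). Replicate 4 was the lowest LLC library and still above the highest control, and the difference was 0.40 ± 0.09 (SE, adjusted p = 0.0347). It was 0.34 ± 0.10 (SE, adjusted p = 0.0935) in hippocampus and 0.22 ± 0.18 (SE, adjusted p = 0.465) in cerebellum, where LLC replicates 2 and 3 lay above the controls and replicates 1 and 4 just below them. The neocortical call held only without LLC replicate 4 when 1 library was left out, and it was lost with all 24 libraries in 1 fit. Abcg1, a related pump, had 36.8, 42.2, 40.7 and 39.98 TPM in LLC hippocampus and 35.4, 36.5, 36.6 and 34.3 TPM in control hippocampus, with no overlap and a difference of 0.16 ± 0.05 (SE, adjusted p = 0.118) that did not pass.

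Nr1h3, the liver X receptor alpha, had 16.4, 22.4, 20.2 and 19.8 TPM in LLC cerebellum and 15.4, 15.6, 15.7 and 16.7 TPM in control cerebellum (means 19.7 ± 2.48 TPM in LLC and 15.8 ± 0.560 TPM in control, SD, n = 4 each). LLC replicate 1 lay within the control range and the other 3 LLC libraries above it, and the difference of 0.29 ± 0.09 (SE, adjusted p = 0.103) did not pass. It was called without LLC replicate 1 and with median-ratio or quantile scaling. Nr1h2, the liver X receptor beta, had differences between -0.01 and 0.08, and Mylip, a ligase that marks lipoprotein receptors for breakdown, between -0.12 and 0.06. Apoe, the main apolipoprotein of the brain and the most abundant member, averaged 1701 ± 59.4 TPM in neocortex of LLC mice and 1796 ± 87.9 TPM in that of controls (SD, n = 4 each), a difference of -0.08 ± 0.05 (SE, adjusted p = 0.276). The efflux set had median differences of 0.09, 0.07 and 0.06 in neocortex, cerebellum and hippocampus, with 1, 0 and 0 of 6 called.

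Ch25h (chr19:34473778-34475164, - strand), a single-exon gene whose product adds a hydroxyl group to the side chain of cholesterol and is known for its induction in immune cells, rose in all 3 regions. It had 6.21, 4.94, 4.05 and 2.10 TPM in LLC neocortex and 0.241, 0.659, 0.197 and 0.426 TPM in control neocortex (means 4.33 ± 1.73 TPM in LLC and 0.381 ± 0.210 TPM in control, SD, n = 4 each). The difference was 1.90 ± 0.23 (SE, adjusted p = 0.00327). In cerebellum it had 6.43, 3.26, 4.07 and 2.51 TPM in LLC cerebellum and 0.691, 0.358, 0.294 and 0.490 TPM in control cerebellum, a difference of 1.75 ± 0.21 (SE, adjusted p = 0.0122). In hippocampus it had 4.80, 3.68, 2.55 and 1.41 TPM in LLC hippocampus and 0.507, 0.422, 0.434 and 0.471 TPM in control hippocampus, a difference of 1.42 ± 0.23 (SE, adjusted p = 0.0192). No LLC library overlapped a control library, and replicate 4 was the lowest LLC library in every region. Because control levels were under 1 TPM, log2(TPM + 1) understates the ratio, which was 11.4 between the group means in neocortex, 8.87 in cerebellum and 6.78 in hippocampus. The number of reads behind these low control values is unknown, so the ratios are rough. Ch25h passed the filter of a mean of 1 TPM only through its LLC libraries, and a filter at a mean of 5 TPM removed it. The neocortical call held in all 18 settings that tested the gene, but these settings reuse the same libraries and add no separate support. The cerebellar call was lost without control replicate 15 or 16, and the hippocampal one without LLC replicate 2 or any 1 of the controls. Of its exon bases, 11.5% lie under Gm26902 on the opposite strand.

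The rest of the oxysterol, ester and lysosomal set was called in no region. Cyp46a1, the neuronal hydroxylase through which the brain exports most of its cholesterol, averaged 238 ± 11.7 TPM in neocortex of LLC mice and 248 ± 6.07 TPM in that of controls (SD, n = 4 each), a difference of -0.06 ± 0.04 (SE, adjusted p = 0.350). It was 0.04 ± 0.11 (SE, adjusted p = 0.835) in cerebellum and -0.08 ± 0.06 (SE, adjusted p = 0.471) in hippocampus. Soat1, which forms cholesteryl esters, had 10.6, 10.3, 9.90 and 10.7 TPM in LLC cerebellum and 12.3, 12.1, 11.9 and 11.7 TPM in control cerebellum. The groups did not overlap, but the difference of -0.19 ± 0.07 (SE, adjusted p = 0.120) did not pass. Npc2, which with Npc1 carries cholesterol out of lysosomes, had 44.7, 43.8, 41.97 and 49.6 TPM in LLC neocortex and 47.6, 49.8, 51.1 and 49.7 TPM in control neocortex, a difference of -0.14 ± 0.05 (SE, adjusted p = 0.112). Npc2 passed without LLC replicate 4. Npc1 stayed between -0.07 and -0.04 in the 3 regions.

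**Figure D3:**
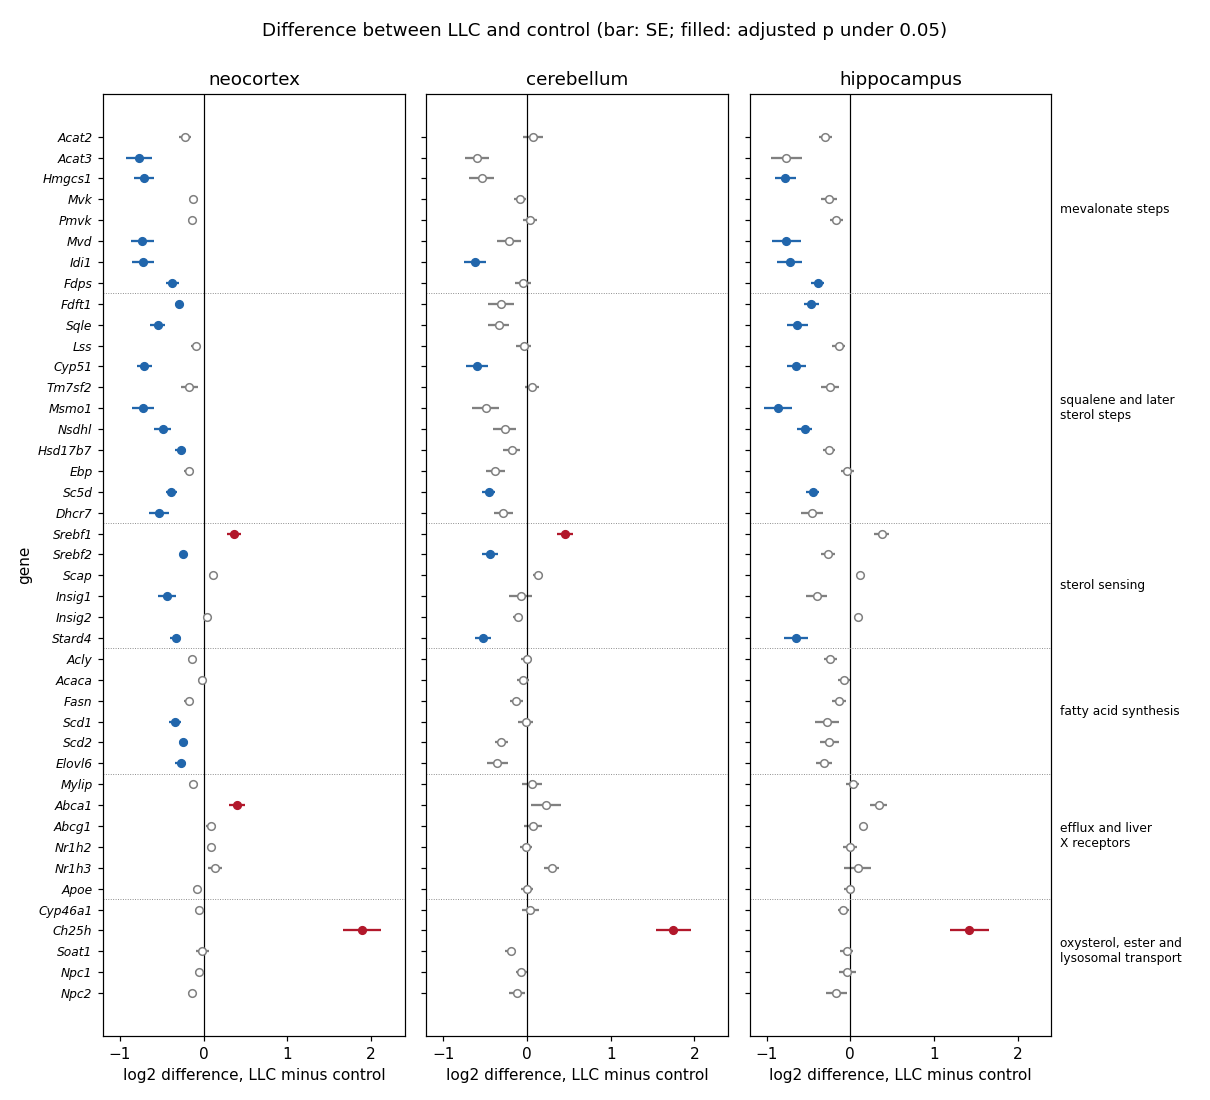
Log2 difference, LLC minus control, of the 42 genes (rows, by role) in neocortex, cerebellum and hippocampus, with the SE as a bar. Filled points have an adjusted p under 0.05 (blue lower, red higher). Filled blue points sit mostly in the mevalonate and later sterol rows, and Ch25h is the point farthest to the right, at 1.90, 1.75 and 1.42.

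Whether the LLC difference itself differed between regions was tested in 1 fit of all 24 libraries. For cerebellum minus neocortex 0 of 42 members were called by limma and 3 had an unadjusted p under 0.05, while 0.646% of all genes tested were called and 12.9% had such a p. For hippocampus minus neocortex 0 of 42 were called and 0 had an unadjusted p under 0.05, beside 0% and 1.91% of all genes. For hippocampus minus cerebellum 0 of 42 were called and 6 had an unadjusted p under 0.05, beside 0.0936% and 12.3% of all genes. With the title numbers as a replicate block, 1 member, Mvd, was called for cerebellum minus neocortex, and none for the other contrasts between regions. The median difference of the 19 sterol synthesis enzymes was 0.17 for cerebellum minus neocortex, -0.05 for hippocampus minus neocortex and -0.18 for hippocampus minus cerebellum. Over all genes it was -0.06, -0.01 and 0.05. The smaller number of calls in cerebellum was therefore not shown to be a smaller response. The summed level of 4 cerebellar neuron genes was 2019 to 3608.1 TPM in LLC and 3215 to 3607.6 TPM in control cerebellum, with the lowest value in LLC replicate 1, which also had the highest myelin sum.

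Of 61 further genes of these pathways, taken from a separate list, 57 were tested in neocortex, with 7 called lower and 4 higher. In cerebellum 56 were tested, with 3 lower and 1 higher, and in hippocampus 56, with 1 lower and 3 higher. Of all genes tested, 2.95% were called lower and 5.59% higher in neocortex. The shares were 1.27% and 1.23% in cerebellum and 1.03% and 2.58% in hippocampus. Hsd17b12, an enzyme of fatty acid elongation, had -0.21 ± 0.04 (SE, adjusted p = 0.0186) in neocortex and -0.27 ± 0.05 (SE, adjusted p = 0.0269) in hippocampus. Acss2, which makes acetyl-CoA from acetate, averaged 11.9 ± 2.07 TPM in LLC neocortex and 16.3 ± 0.274 TPM in control neocortex (n = 4 each, SD), a difference of -0.43 ± 0.09 (SE, adjusted p = 0.0257). Fabp5, a fatty acid carrier, had -0.22 ± 0.05 (SE, adjusted p = 0.0221) and Clu, an apolipoprotein made by astrocytes, 0.18 ± 0.03 (SE, adjusted p = 0.0203) in neocortex. In cerebellum Fads2 and Fads1, the desaturases of polyunsaturated fatty acids, had -0.56 ± 0.10 (SE, adjusted p = 0.0280) and -0.50 ± 0.11 (SE, adjusted p = 0.0457), and Fabp7, a fatty acid carrier of glia, had -1.62 ± 0.32 (SE, adjusted p = 0.0383). Abca2, a transporter of the same family as Abca1, rose there by 0.32 ± 0.06 (SE, adjusted p = 0.0317) and in neocortex by 0.25 ± 0.07 (SE, adjusted p = 0.0450). Apod, an apolipoprotein, averaged 325 ± 97.9 TPM in LLC hippocampus and 127 ± 21.2 TPM in control hippocampus (SD, n = 4 each), a rise of 1.32 ± 0.21 (SE, adjusted p = 0.0179). It also rose in neocortex, by 1.18 ± 0.29 (SE, adjusted p = 0.0381), with LLC replicate 4 within the control range. Thrsp, a regulator of lipid synthesis, and Mbtps1, the protease that makes the first cut in the factors from Srebf1 and Srebf2, also rose in hippocampus, by 0.57 ± 0.11 (SE, adjusted p = 0.0298) and 0.20 ± 0.04 (SE, adjusted p = 0.0447).

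Control brains show how the members are spread over the regions without a tumour. Between control cerebellum and control neocortex 31 of the 41 members tested differed, 15 lower and 16 higher in cerebellum, beside 85.5% of all genes (24.4% lower, 61.0% higher). Between hippocampus and neocortex 24 differed, 18 lower and 6 higher in hippocampus, beside 61.8% of all genes (21.3% lower, 40.5% higher). Between hippocampus and cerebellum 33 differed, 20 lower and 13 higher in hippocampus, beside 81.9% (55.3% lower, 26.6% higher). The totals are near the background or below it, while members lower in cerebellum or in hippocampus than in neocortex made up a larger share than such genes did in the whole table. The median over all genes was 0.31, 0.08 and -0.23 in these comparisons, and median-ratio scaling, which removes that shift, gave 26 lower and 10 higher, 28 lower and 4 higher, and 13 lower and 20 higher. Over all genes that scaling called 5972 lower and 5944 higher of 14729, 4434 and 4447 of 14561, and 5782 and 5789 of 14814. The larger share of members lower in cerebellum or in hippocampus than in neocortex held under both scalings. Between hippocampus and cerebellum the majority of called members turned from lower to higher.

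Cyp46a1 had the largest difference on the log2(TPM + 1) scale, with 149, 169.9, 155 and 177 TPM in control hippocampus, 47.4, 45.1, 46.6 and 48.7 TPM in control cerebellum and 251, 239.5, 248 and 253 TPM in control neocortex. Neocortex was highest, hippocampus next and cerebellum lowest, with no overlap between neighbours. The difference was -2.38 ± 0.03 (SE, adjusted p = 3.12e-13) for cerebellum minus neocortex, -0.61 ± 0.05 (SE, adjusted p = 2.74e-06) for hippocampus minus neocortex and 1.77 ± 0.06 (SE, adjusted p = 1.96e-10) for hippocampus minus cerebellum. Nr1h3 was highest in cerebellum, with 15.4, 15.6, 15.7 and 16.7 TPM in control cerebellum and 2.43, 2.73, 2.01 and 2.49 TPM in control neocortex, a difference of 2.31 ± 0.07 (SE, adjusted p = 1.37e-10). Hippocampus had 2.94, 2.97, 2.62 and 3.63 TPM, and hippocampus minus cerebellum was -2.06 ± 0.08 (SE, adjusted p = 1.02e-09).

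Acat3 was scarce in control cerebellum, with 2.49, 2.34, 1.76 and 1.94 TPM in control cerebellum and 9.36, 8.40, 8.10 and 9.75 TPM in control neocortex, a difference of -1.66 ± 0.09 (SE, adjusted p = 1.37e-08), and hippocampus minus cerebellum was 1.91 ± 0.09 (SE, adjusted p = 5.67e-09). Srebf2 was lower in cerebellum than in neocortex, at -0.64 ± 0.03 (SE, adjusted p = 6.00e-09), and lower in hippocampus than in neocortex, at -0.32 ± 0.03 (SE, adjusted p = 3.81e-06). Nr1h2 was higher in cerebellum than in neocortex, at 0.66 ± 0.04 (SE, adjusted p = 1.94e-08). Between hippocampus and neocortex, Mylip was higher, at 0.48 ± 0.05 (SE, adjusted p = 1.82e-05), and Acly and Abcg1 lower, at -0.33 ± 0.04 and -0.33 ± 0.04 (SE). Ebp and Stard4 were lower in hippocampus than in cerebellum, with 14.2, 15.9, 14.9 and 16.2 TPM of Ebp in control hippocampus and 32.98, 37.5, 35.3 and 38.1 TPM in control cerebellum. The differences, hippocampus minus cerebellum, were -1.18 ± 0.06 (SE, adjusted p = 1.12e-08) for Ebp and -1.46 ± 0.08 (SE, adjusted p = 3.24e-08) for Stard4.

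**Figure D4:**
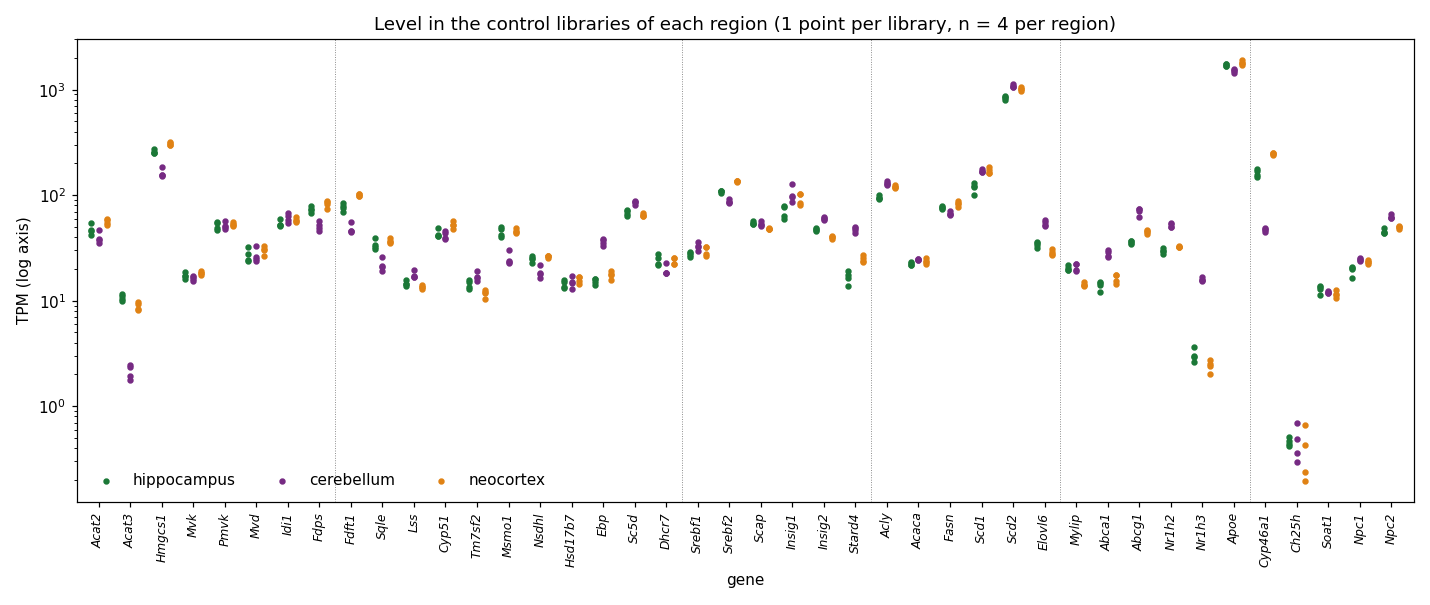
TPM (log axis) of the 42 genes in the control libraries of hippocampus, cerebellum and neocortex (4 points each), ordered by role and parted by dotted lines. Apoe and Scd2 are the most abundant and Ch25h the scarcest in each region, and Cyp46a1, Nr1h3, Acat3, Ebp and Stard4 show the cerebellum apart from the other regions.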

How the data were processed

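Per the labels' protocols, Trizol RNA went into stranded TruSeq mRNA libraries. A single table of TPM values was deposited, made on mm10 per the submitters' processing notes, with aligner, counter and annotation not given in the sources used here. Since TPM fixes the total of a library, an abundant transcript that gains share pushes the rest down, and depth cannot be read from the values. The labels give no culture, litter or animal pairing across regions, so p-values measure the spread between these libraries.

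Log2(TPM + 1) values of each region were fitted in limma 3.58.1 under R 4.3.3, using two-sided tests with trended eBayes and a Benjamini-Hochberg threshold of 0.05. Genes needed an average of 1 TPM or more across the libraries compared. Contrasts between regions came from 1 fit of 24 libraries, and control regions were compared in fits of 8 libraries. Fold changes on this scale understate those of low genes. Coordinates and shared 50-base stretches came from GENCODE M21 (mm10), and start regions from RefSeq (GRCm38.p6). Members and lists were chosen with earlier results of these data known. Values per library are given for the 3 members of each role with the smallest unadjusted p in any region, for Srebf1, Srebf2, Insig1, Acat2 and Acat3, and, between control regions, for the 5 members with the smallest p; the other pathway genes are named from those called. Alternatives were another pseudocount, filters, scalings, variance models, library weights, a GC and length correction, a replicate block, all 24 libraries in 1 fit, and each library left out. Scripts were tested on simulated data. Figures used Python 3.11.15 and matplotlib 3.10.9. Proteins were not used here, and 1 further pathway gene and 1 myelin marker of the lists are not reported here.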

Additional observations from a re-analysis of the deposited data

Results flagged for a closer look

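Of 156 groups of 4 libraries searched, from 26 genes, 9 held a library whose gap to the nearest other exceeded Dixon's 95% critical value as a share of the range, where chance gives about 1 in 20. LLC replicate 4 of neocortex was the high library for 5 of them. It had 253 TPM, beside 163 to 175 TPM in the other LLC libraries, for Hmgcs1, and 25.1 TPM, beside 15.2 to 16.4 TPM for Mvd. For Cyp51 it had 39.3 TPM, beside 28.9 to 30.3 TPM, for Sqle 31.4 TPM, beside 22.2 to 23.6 TPM, and for Scd2 970.3 TPM, beside 816 to 834 TPM. The same library had the lowest erythroid and the highest neutrophil sum of the neocortical LLC libraries, and what sets it apart was not tested.

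Control libraries account for the other 4. Hmgcs1 had 186 TPM, beside 152 to 155 TPM in the other controls, in cerebellar control replicate 14. In hippocampal control replicate 15, Hmgcs1 had 277 TPM, beside 253 to 254 TPM and Idi1 60.1 TPM, beside 50.6 to 52.01 TPM in the other controls. Npc2 had 49.4 TPM, beside 43.5 to 44.5 TPM in the other controls, in hippocampal control replicate 17.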

How the results depend on the processing

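No named difference changed sign. The median of the other members in cerebellum did, at 0.03 with median-ratio scaling beside -0.02, and between control hippocampus and cerebellum that scaling gave 13 members lower and 20 higher, beside 20 and 13. Of the named members, leaving out 1 library gave the same call in 151 cases, a gained one in 3 and a lost one in 74, and the other settings gave the same call in 267, a gained one in 6 and a lost one in 17. Sterol synthesis enzymes called lower, 13 in neocortex, 3 in cerebellum and 10 in hippocampus, ranged from 3 to 17, 0 to 7 and 0 to 15 with each library left out, and other members called, 9, 4 and 2, from 1 to 14, 0 to 6 and 0 to 9. Over the whole table, genes called lower in those fits ranged from 31 to 1633, 0 to 950 and 5 to 718. Without a filter on low values, the sterol synthesis count was 0 in cerebellum and 4 in hippocampus, and the other members' count 4, 1 and 1 in neocortex, cerebellum and hippocampus. Calls over all genes were then 147 lower and 430 higher, 20 and 51, and 56 and 164 in these regions. With library weights, which also called Acat2 in hippocampus, Nr1h3 and Soat1 in cerebellum and Npc2 in neocortex, the sterol synthesis count in cerebellum was 12 and the other members' counts were 14, 15 and 7. The weights raised calls over the whole table too, to 1778 lower and 2559 higher in neocortex, 3224 and 2545 in cerebellum and 401 and 779 in hippocampus. The main fits called 428 and 809, 186 and 180, and 151 and 378. With all 24 libraries in 1 fit, the sterol synthesis count in cerebellum was 7 and the other members' count 2 in neocortex and 4 in hippocampus. That fit called 167 genes lower and 617 higher in neocortex, 1924 and 1088 in cerebellum and 181 and 458 in hippocampus. With the GC and length trend removed, the cerebellar counts were 0 and 2, although the median difference of the 19 enzymes there was -0.33, beside -0.28. Over all genes that setting called 52 lower and 73 higher in cerebellum. Quantile normalization gave 7 other members in cerebellum, and a filter at a mean of 5 TPM, which removes Ch25h, gave 1 in hippocampus. Over all genes, the former called 353 lower and 472 higher in cerebellum, and the latter 153 and 349 in hippocampus. With the replicate block (the description numbers, 1 to 4 in both groups) 6 enzymes were called lower in cerebellum, 4 in hippocampus and 1 other member in hippocampus, and with the title numbers as a block 1 member, Mvd, differed for cerebellum minus neocortex. The block of description numbers called 448 genes lower and 276 higher in cerebellum, and 40 and 139 in hippocampus. The numbers were not taken as pairs, because no label says that a number is 1 animal. Deviations of same-numbered LLC and control libraries correlated at -0.26 to 0.47, with 5 of 12 pairs over 0.1, beside 11 of 36 differently numbered pairs. Those of same-numbered libraries of 2 regions correlated at -0.10 to 0.63 (median 0.16), with 16 of 24 over 0.1. Differently numbered libraries of 2 regions had a median of -0.05, with 6 of 72 over 0.1. A library correlated best with its own number in 8 of 24 cases within a region and in 36 of 48 between regions, a hint from the data and not from the labels. Apart from the replicate block, the fits between regions treated all libraries as independent. Members called between control regions ranged from 29 to 31, 20 to 22 and 31 to 31, and those called for a difference of the LLC effect were 0 to 0, with each library left out. With median-ratio scaling the genes called in neocortex were 707 higher and 575 lower, beside 809 and 428. The cause of these changes between settings was not tested. The depth behind the TPM values is unknown and limits the scarce genes, Acat3 and Ch25h.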
